A study of Mus musculus with 2 samples.

Results

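The peaks described here are stretches of open chromatin in the embryonic mouse midbrain that lie at the 3' ends of protein-coding genes and away from any annotated start. A peak of replicate 2 was taken when it overlapped a replicate 1 peak by at least 1 bp, lay on an autosome, was centred within 500 bp of the 3' end of a protein-coding gene record, was not centred in coding sequence and was centred over 2000 bp from every annotated transcript start. The rule used position and presence in both replicates, and no peak height. It found 1058 peaks among 115338 shared autosomal peaks that met the same limits on coding sequence and starts (distal shared peaks). The other 114280 consisted of 55986 in introns, 55565 between genes and 2729 in exons.

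The 3' end of a gene is where its transcript is cut and given a poly(A) tail, at a site usually preceded by a hexamer such as AATAAA on the gene's strand. RNA polymerase runs on past this site before it leaves the DNA. Regions near gene ends can also hold enhancers, which raise the activity of promoters at a distance, and sites of CTCF, a zinc finger protein that binds DNA in one orientation and, with cohesin, sets the borders of chromatin loops. In DNase-seq, open DNA is cut by the enzyme DNase I, and a peak marks a short stretch with many cuts.

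The tissue was midbrain of healthy embryos at day 14.5, pooled from males and females of the strain B6NCrl, with no treatment given in the labels. It formed 1 group of 2 biological replicates, whose biosamples share a donor entry, so part of the difference between them may be technical. A piece of whole midbrain holds many cell types, and a weak site in all cells cannot be told apart from a strong site in a few. All comparisons below are between sets of peaks or of genes in the same 2 libraries. They carry no test across samples, and their 95% intervals cover counting error only.

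Replicate 1 held 710176 peaks with a median value of 6, and replicate 2 held 267958 peaks with a median value of 51. The value is the authors' signal for a peak, a whole number of at most 150 that is not scaled between replicates. Its unit is not stated in the sources used here, and a peak is called tall below only by this value. Peaks are therefore compared by value or by percentile rank within a replicate. Of all replicate 2 peaks that met the position rule, 1749 in number, 60.5% overlapped a replicate 1 peak (95% exact interval 58.2 to 62.8), against 62.2% of the 183630 other distal replicate 2 peaks (62.0 to 62.5).

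Sequences of 3 sets are shown because the results turn on them. All are from mm10, written 5' to 3'. The first set gives 30 bases around the CTCF match of the 5 highest-ranking 3' end peaks that held one, on the strand of the match, with the matching bases in capitals. They are the sites at Ror2 (chr13:53109743-53109772, plus strand), 1700029H14Rik (chr8:13551140-13551169, plus strand), Bcan (chr3:87987135-87987164, minus strand), Ripor1 (chr8:105622557-105622586, plus strand) and Acvrl1 (chr15:101145555-101145584, minus strand).
Ror2: catcctccgCCAGCAGGGGGCtcacggagc
1700029H14Rik: gaatctgaaCCACCAGAGGGCaccatcaga
Bcan: aggctgtgaCCAGTAGAGGGCgctgcagat
Ripor1: gagctgtcgCCACCAGGGGGCagcagaact
Acvrl1: gcgcattggCCAGCAGAGGGCgacgtggct

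The second set gives, on the gene's strand, 4 of the 5 highest-ranking whole peaks of 150 bp that lay past the gene end with no base in an exon, with each CpG in capitals. The fifth, at the gamma-protocadherin genes, ranked between Fam120a and Sncb, held 6 CpG and is not printed. They are the peaks at Fam120a (chr13:48878676-48878825, minus strand), Sncb (chr13:54758496-54758645, minus strand), Dnajb12 (chr10:59899676-59899825, plus strand) and Shf (chr2:122348636-122348785, minus strand). These stretches held 17, 14, 10 and 22 CpG in that order, where a 3' end peak held 3.18 on average.
Fam120a: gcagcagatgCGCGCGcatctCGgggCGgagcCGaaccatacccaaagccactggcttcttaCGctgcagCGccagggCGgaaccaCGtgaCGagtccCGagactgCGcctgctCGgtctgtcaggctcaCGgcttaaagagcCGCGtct
Sncb: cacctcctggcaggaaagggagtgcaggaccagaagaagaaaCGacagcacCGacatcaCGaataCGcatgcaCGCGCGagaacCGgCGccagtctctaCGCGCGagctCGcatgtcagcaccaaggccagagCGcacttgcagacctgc
Dnajb12: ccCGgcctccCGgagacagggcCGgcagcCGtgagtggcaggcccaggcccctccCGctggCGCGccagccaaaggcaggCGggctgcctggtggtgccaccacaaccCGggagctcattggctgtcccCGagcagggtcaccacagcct
Shf: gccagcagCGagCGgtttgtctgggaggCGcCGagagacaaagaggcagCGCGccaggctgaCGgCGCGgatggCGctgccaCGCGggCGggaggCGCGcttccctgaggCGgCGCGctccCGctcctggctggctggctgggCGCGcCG

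The third set gives 30 bases on the gene's strand around a poly(A) hexamer, in capitals, inside 3' end peaks centred within 100 bp of the annotated end. They lie at Ung (chr5:114139296-114139325, plus strand), Lipe (chr7:25379656-25379685, minus strand) and Dhdh (chr7:45470996-45471025, minus strand), and these 3 genes were chosen after their values were seen. Ung encodes the uracil glycosylase of base excision repair and Lipe the hormone-sensitive lipase.
Ung: ggctAATAAAagatggttgacaattggcgg
Lipe: ccttttgtaAATAAAagttatttaactagg
Dhdh: tgtattaactaaaAATAAAacagaccttta

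Around gene ends, open chromatin was sparse at the end itself and denser on both sides of it. Distances count from the annotated end, negative inside the gene and positive past it, and densities are peak centres per Mb of sequence that met the limits on coding sequence and starts, each centre counted once for every distinct end it was near. Within 100 bp of the end the density of shared peaks was 44.1 per Mb (95% exact Poisson interval 36.9 to 52.3). From 500 to 101 bp before the end it was 80.5 per Mb (73.1 to 88.4), and from 101 to 500 bp past it 86.9 per Mb (79.7 to 94.6). The lowest 100 bp stretch was the last 100 bp of the gene, at 36.9 per Mb, and the stretch from 200 to 300 bp past the end reached 95 per Mb.

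A dip stood in each replicate alone, and in proportion it was shallower in replicate 1. Among all replicate 1 peaks the density was 242 per Mb within 100 bp of the end, against 304 per Mb on the inner side and 311 per Mb on the outer side. Among all replicate 2 peaks it was 75.2 per Mb within 100 bp of the end and 138 per Mb on each side. The GC content of the sequence moved with it: 39.1% within 100 bp of the end, 43.3% on the inner side and 44.8% on the outer side. Its part in the dip was not tested.

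Over the whole 1000 bp window, with the dip included, the density was somewhat above that of the surroundings of both sides together. It was 75.7 per Mb within 500 bp of the end (71.3 to 80.3), against 67 per Mb from 1500 to 5000 bp on both sides, a ratio of 1.13. The inner surroundings held 58.0 per Mb and the outer surroundings 73.8 per Mb. The ratio was 1.08 in replicate 1 alone and 1.19 in replicate 2 alone, and 1.03 within 250 bp of the end.

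**Figure D1:**
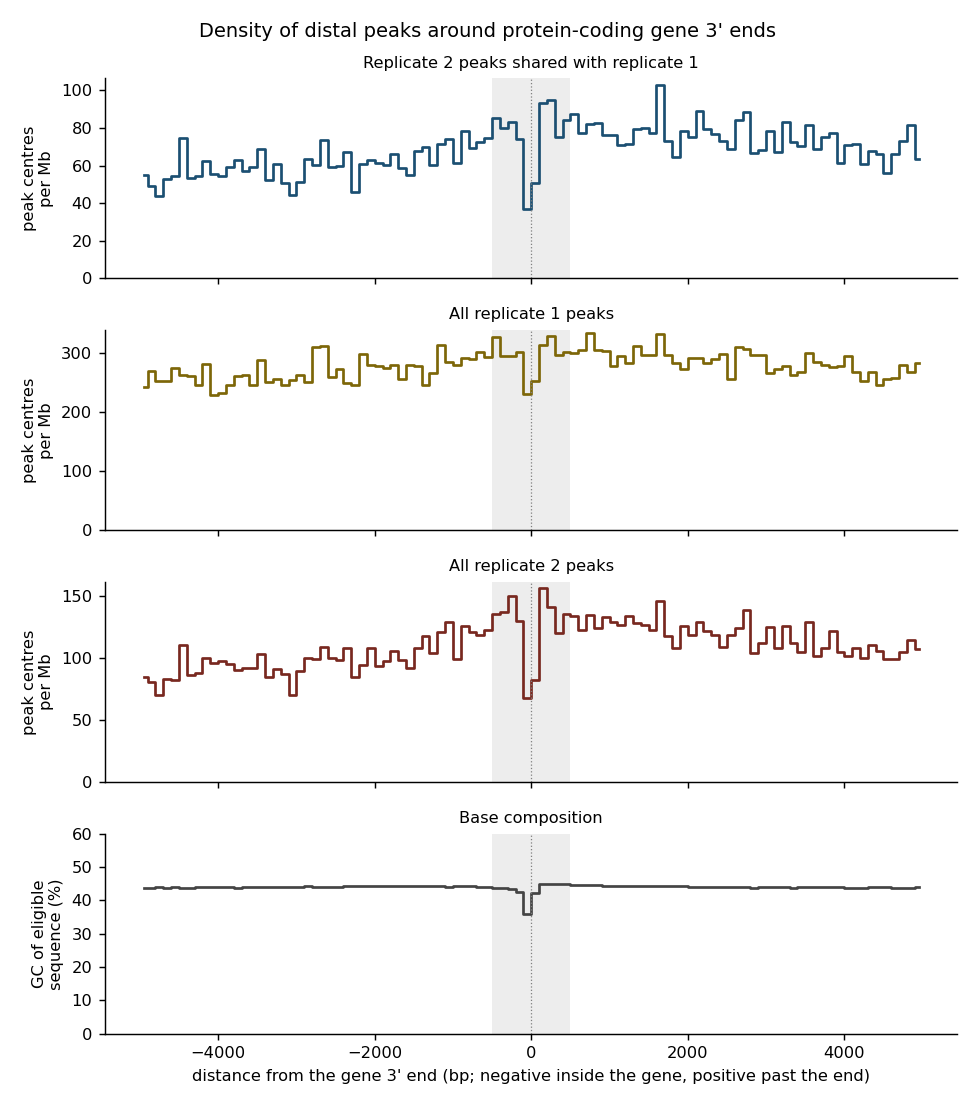
Density of distal peak centres per Mb in 100 bp steps from 5000 bp inside the gene to 5000 bp past the annotated 3' end (horizontal axis in bp), for shared peaks and for each replicate's own peaks, with the GC content of the same sequence in the lowest panel. Density and GC content both dip in the last 100 bp of the gene, to 36.9 shared peaks per Mb and 35.9% GC.

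Of the 1058 peaks, 585 were centred past the end (55.3%, 95% exact interval 52.2 to 58.3) and 473 inside the gene or on the end, in a window where 52.5% of the eligible sequence lay past the end. An exon held the centre of 461 peaks (43.6%), and 511 peaks lay past the end without touching any exon (48.3%). Coding sequence was touched by 47 (4.44%), and 40 were near more than 1 distinct gene end (3.78%). Adjacent peaks overlapped in 24 cases. In a second annotation, RefSeq, 871 of the peaks were also within 500 bp of a protein-coding gene end (82.3%) and 187 were not. A RefSeq transcript start within 2000 bp stood beside 43 of them (4.06%).

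The annotated ends carried the usual hexamer about as often with a peak as without. AATAAA or ATTAAA stood in the last 50 bp of 75.6% of the 929 ends that had a 3' end peak nearest to them, and of 73.8% of the 15529 other eligible ends. AATAAA lay on the gene's strand inside 28 of the 55 peaks centred in the last 100 bp (50.9%) and inside 19 of the 76 centred in the first 100 bp past the end (25%). Over all 3' end peaks the share was 7.84% on the gene's strand and 5.67% on the other strand, against 4.63% and 4.94% in peaks 1500 to 5000 bp from an end and 6.10% and 6.62% in all other distal shared peaks. A peak centred near the end can take in the last 50 bp of the gene, where 60.2% of all eligible ends carried AATAAA. The shares at the ends can therefore not be read apart from position. The peak at Ung held its hexamer with values of 51 and 119 in replicates 1 and 2, that at Lipe with 61 and 114, and that at Dhdh with 46 and 107.

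The 3' end peaks covered a wide range of values. Medians above those of all peaks were also found for the other distal shared peaks, at 17 in replicate 1 and 59 in replicate 2. When presence in both replicates was not required, the median rank at 3' ends was 51.6 in replicate 1 and 49.2 in replicate 2. The value of the shared 3' end peaks in replicate 1 ranged from 1 to 126, with a median of 19 and quartiles of 12 and 35. In replicate 2 it ranged from 13 to 146, with a median of 67 and quartiles of 46 and 91. The order of the peaks was much the same in both replicates (Spearman correlation 0.888 over 1058 peaks, as a description). The correlation was 0.902 over peaks 1500 to 5000 bp from an end and 0.860 over all other distal shared peaks. The limit at 500 bp marked no step in height: 230 peaks just inside it, at 400 to 500 bp, had median values of 18 and 65, and 221 just outside, at 501 to 600 bp, had 22 and 70.

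In rank they stood slightly above distal peaks far from genes' ends and level with those nearby. The median percentile rank among all autosomal peaks was 86.7 in replicate 1 and 66.6 in replicate 2 at 3' ends. It was 88.1 and 67.4 for the 5420 peaks 1500 to 5000 bp from an end, and 84.9 and 57.9 for the 106933 peaks over 5000 bp away. All of these are shared peaks. A rank over 90 in both replicates was held by 119 of the 3' end peaks (11.2%) and by 6.99% of the other distal shared peaks.

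The authors also called hotspots, wider regions of raised cutting with a −log10 q value capped at 100. Of the 3' end peaks, 412 stood in a hotspot at the cap in both replicates (38.9%), where all distal shared peaks gave 31.6% and peaks 1500 to 5000 bp from an end gave 42.3%. Hotspots of 1000 bp or wider in both replicates held 56 of them (5.29%), against 4.22% of all distal shared peaks and 5.48% of the peaks 1500 to 5000 bp away.

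**Figure D2:**
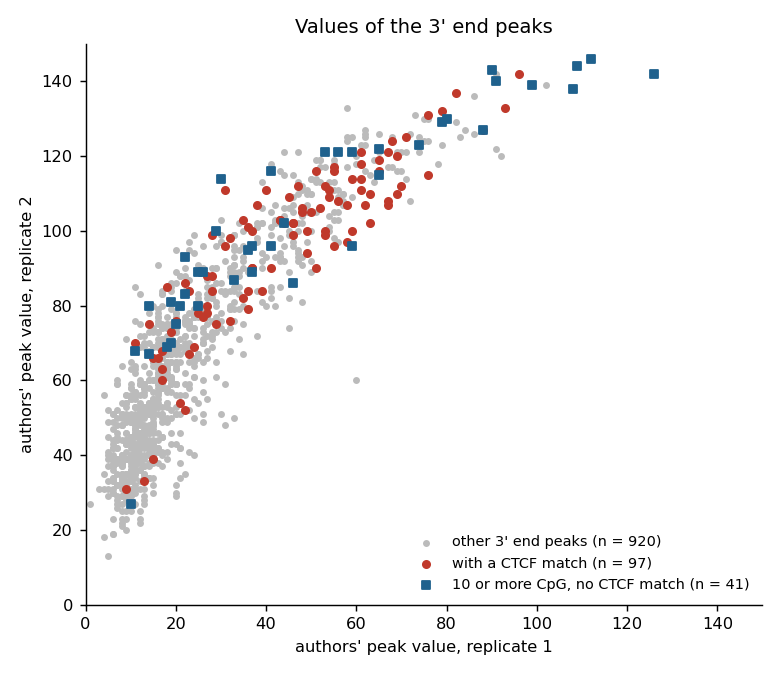
Authors' peak value of each of the 1058 peaks at gene 3' ends in replicate 1 (horizontal axis) and replicate 2 (vertical axis), both from 0 to 150, with peaks that hold a CTCF match in red and CpG-rich peaks without one as blue squares. Red points and squares lie mostly above the middle of the vertical axis and left of the middle of the horizontal axis. Medians were 46 and 101 for peaks with a CTCF match, while the grey peaks spread from 1 upwards in replicate 1.

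In base composition the 3' end peaks matched their surroundings. Their median GC content was 51.3%, as it was 1500 to 5000 bp away, against 48.7% over 5000 bp away. Repeat-masked sequence covered more than 50% of 4.06% of them, against 5.81% of peaks 1500 to 5000 bp away. At least 10 CpG stood in 42 of the 3' end peaks (3.97%, interval 2.88 to 5.33), where all distal shared peaks gave 1.65% and peaks 1500 to 5000 bp from an end 3.56%. These 42 CpG-rich peaks were taller than most, with median values of 41 and 98, and 2 of them lay within 2000 bp of a RefSeq transcript start. Other distal shared peaks with at least 10 CpG had like values, with medians of 40 and 105.

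A CTCF match was found in 97 of the 1058 peaks (9.17%, 95% exact interval 7.5 to 11.1), where all distal shared peaks gave 4.36%. The match is an exact fit to the 12-letter core of the CTCF motif, on either strand, in the central 150 bp, and describes letters, not binding. The share was close to that of peaks 1500 to 5000 bp from an end, at 9.67% (8.89 to 10.5), and both stood above the 3.95% of peaks over 5000 bp away. The share was thus raised at the ends and in the surroundings alike. Past the end 10.1% of the peaks held a match, and inside the gene 8.03%. Per Mb of eligible sequence, peaks with a match numbered 7.03 within 500 bp of an end and 6.56 in the surroundings, a ratio of 1.07.

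Peaks with a CTCF match were the taller ones. Their median values were 46 in replicate 1 and 101 in replicate 2, against 18 and 63 in the 961 without a match. In 75 of the 97 the hotspot was at the cap in both replicates (77.3%), against 35.1% of those without. The match lay a median of 14.5 bp from the peak centre, and within 25 bp in 75 of 97. Other distal shared peaks with a match had like values, with medians of 44 and 99. Of 60 with a replicate 2 value over 120, 10 held a match, a larger share than the 97 of all 1058 (9.17%). Most of these tallest peaks still held none.

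The 5 highest-ranking peaks with a match are those whose sites are printed above. At Ror2, which encodes a receptor tyrosine kinase for Wnt5a, the peak lay 438 bp inside the end with values of 96 and 142. At 1700029H14Rik it lay 457 bp inside, with 82 and 137. Both were in the last part of their gene and had their site on the strand opposite to the gene. At Bcan, the gene of brevican, a proteoglycan of the brain's extracellular matrix, the peak lay 361 bp past the end with 93 and 133. At Ripor1 it lay 331 bp past the end with 79 and 132. At Acvrl1, a receptor of the TGF-beta family known from endothelium, it lay 294 bp past the end with 76 and 131. The sites at Bcan and Ripor1 were on the gene's strand and the site at Acvrl1 on the other.

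The share of matches on the gene's strand was higher past the end than inside the gene. The intervals of the 2 sides overlapped at the ends and were apart in the surroundings. Past the end, 40 of 59 matches were on the gene's strand (67.8%, 95% exact interval 54.4 to 79.4). Inside the gene 15 of 38 were (39.5%, 24.0 to 56.6). The surroundings showed the same pattern with narrower intervals: 189 of 315 on the gene's strand from 1500 to 5000 bp past the end (60%, 54.4 to 65.5) and 86 of 209 inside (41.1%, 34.4 to 48.1). The intervals of the ends and their surroundings overlapped on each side, so no difference between them could be seen at these numbers. With all replicate 2 peaks the shares at the ends were 69.8% past and 40.0% inside, and with all replicate 1 peaks 66.1% and 40.0%.

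**Figure D3:**
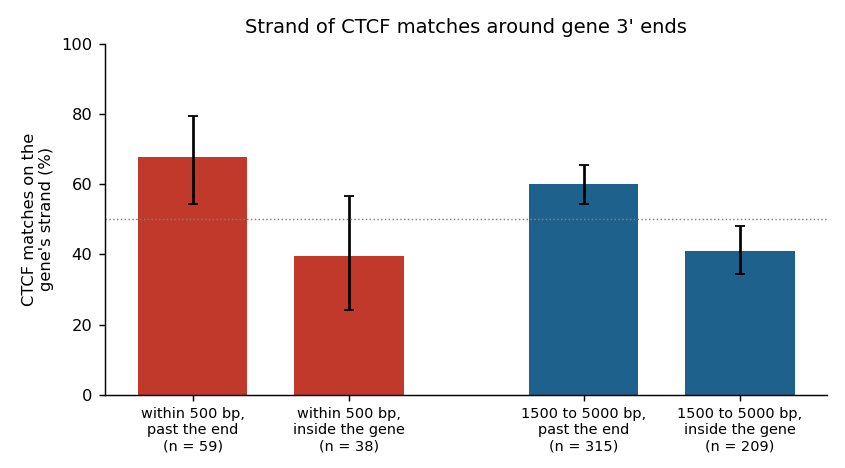
Share of CTCF matches that lie on the gene's strand (vertical axis, %), past the gene end and inside the gene, for peaks within 500 bp of the end and for peaks 1500 to 5000 bp away, with 95% exact intervals and a dotted line at 50%. Both sets stand above the line past the end (67.8% and 60%) and below it inside the gene (39.5% and 41.1%).

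Matches to the motifs of 10 other factors, searched on both strands as exact letters, had shares at 3' ends within 1 percentage point of those in the surroundings. The homeodomain core TAATTA stood in 3.21% of the 3' end peaks, 3.58% of those 1500 to 5000 bp away and 6.45% of those over 5000 bp away. The AP-1 motif TGANTCA stood in 4.25%, 4.94% and 5.30% of the same sets, and the E-box CAGCTG, bound by proneural helix-loop-helix factors, in 14.5%, 15.0% and 15.3%. The NFI element TTGGCA was in 11.8%, 12.1% and 13.6%, and the SOX motif ACAATGG in 2.08%, 2.23% and 2.65%. Of these, TAATTA differed most between the neighbourhood of gene ends and the sequence far from them, and the sets also differed in GC content, 51.3% at 3' ends and 48.7% over 5000 bp away, whose part was not tested.

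The remaining motifs are those of factors best known from promoters or as repressors. CCAAT, the box bound by NFY, was in 18.8% of 3' end peaks, 18.0% of those 1500 to 5000 bp away and 19.5% of those farther off. The RFX motif GTTGCCATG stood in 0.945%, 1.38% and 1.51% of these sets, and the YY1 motif AAGATGGC in 0.945%, 1.27% and 0.907%. The element of REST, which represses neuronal genes in other cells, matched in 1 of 1058 (0.0945%), against 0.126% of other distal shared peaks. The NRF1 motif GCGCATGCG was found in 0 of 1058, which allows a share of up to 0.348% by the exact interval, against 0.258% of the peaks 1500 to 5000 bp away, so a difference was not detectable at this number.

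**Figure D4:**
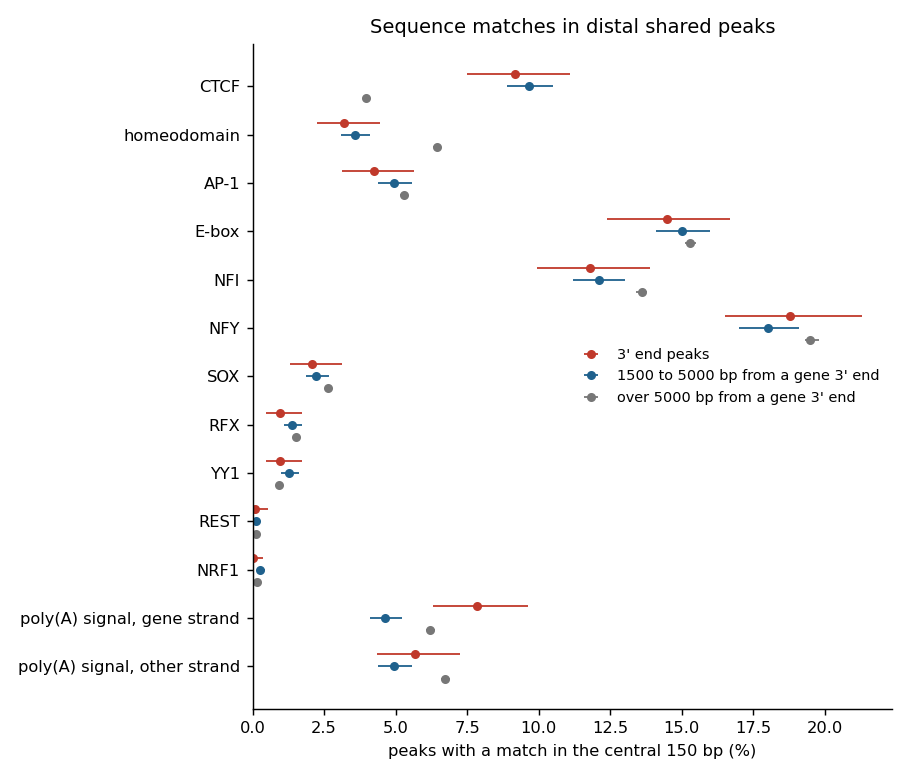
Share of distal shared peaks with an exact match in the central 150 bp (horizontal axis, %), by motif, for peaks at gene 3' ends, peaks 1500 to 5000 bp from an end and peaks over 5000 bp from any end, with 95% exact intervals. CTCF stands at 9.17% at 3' ends and 9.67% nearby, against 3.95% far away, and the homeodomain core is lower at 3' ends and nearby than far away.

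Of the 10 tallest 3' end peaks, 7 held at least 10 CpG, and their genes have varied functions. The 10, with the highest mean rank over both replicates, had values of 90 to 126 in replicate 1 and 138 to 146 in replicate 2. The highest, at 1700008O03Rik, lay 127 bp inside the end with 112 and 146. That at a, the agouti gene of coat colour, lay 162 bp inside with 109 and 144. That at Fam120a, which encodes an RNA-binding scaffold protein, lay 469 bp past the end and had the highest replicate 1 value of all, 126, with 142 in replicate 2. The strongest promoter peaks of these 3 genes, in the same order, had 99 and 137, 124 and 144, and 98 and 145.

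Shf, the gene of an SH2 domain adaptor, had 2 of the 10, one 78 bp inside its end with 90 and 143 and one 182 bp past it with 91 and 140. Sncb, which encodes the presynaptic protein beta-synuclein, had a peak 290 bp past the end with 108 and 138, against 80 and 134 at its promoter. The peak at Lrrc24 lay 94 bp inside with 102 and 139. The peak at Dnajb12, which encodes a chaperone of the endoplasmic reticulum, lay 448 bp past the end with 99 and 139, and a RefSeq transcript start lay 1988 bp from it. The peak at the common 3' end of the gamma-protocadherin genes, which encode cell adhesion proteins of neurons, lay 357 bp past the end with 91 and 142, against 29 and 70 at the strongest promoter peak. Of the 10, only the peak at Ror2 held a CTCF match, and its strongest promoter peak had 30 and 117.

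Such heights were the exception. Among 911 3' end peaks at genes with a shared promoter peak, 97 had a higher mean rank than that promoter peak (10.6%), and the rank at the end did not follow that at the promoter (Spearman correlation −0.042 over these peaks, which share libraries, as a description).

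Of 16502 protein-coding genes whose end could hold such a peak, 983 had one (5.96%). There were 844 genes with 1, 124 with 2 and 15 with 3. Their promoters were open more often, with a shared peak at 849 of the 983 genes (86.4%, interval 84.1 to 88.5) and at 71% of the 15519 other eligible genes. They also had more distal shared peaks 1500 to 5000 bp from the end, 0.745 per gene against 0.305. Gene length was much the same, with medians of 20.8 and 21.8 kb.

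By the layout of neighbouring genes, 222 of 3329 ends that faced the end of another protein-coding gene within 10 kb had a peak (6.67%). It was 117 of 2437 ends followed by a gene on the same strand (4.80%), 493 of 8704 with no gene within 10 kb (5.66%) and 97 of 1988 inside another gene (4.88%). Per Mb of eligible sequence, facing ends had 81.9 peaks and the other 3 layouts 69.9 to 71.6. A CTCF match stood in 9.17% of the peaks at facing ends, and in 5.52% of those followed by a gene on the same strand, 9.80% of those with no near gene and 10.7% of those inside another gene, with overlapping intervals.

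Regulators of midbrain and isthmus development often had a 3' end peak. Of 27 eligible genes on that list, 8 had one (29.6%, 95% exact interval 13.8 to 50.2), where all eligible genes gave 5.96%. The same list also had many peaks nearby, 2.56 per gene from 1500 to 5000 bp from the end, where all eligible genes had 0.331, so the peaks at the ends stood in regions rich in peaks altogether. Neural progenitor genes had 4 of 13 (30.8%, 9.09 to 61.4), with 1.77 nearby peaks per gene. Pan-neuronal genes had 0 of 14 (up to 23.2%) with 0.286 nearby peaks per gene. That count rested on replicate 2: among all replicate 1 peaks 7 of 14 pan-neuronal genes had one (50%), beside 14 of 27 midbrain regulators (51.9%) and 17.6% of all eligible genes. For shared peaks, housekeeping genes had 0 of 11 (up to 28.5%) with 0.0909. The promoter was open at 29 of the 30 midbrain regulators, at all 17 pan-neuronal genes found on autosomes and at 18 of 18 housekeeping genes.

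Transmitter genes had 1 of 17, oligodendrocyte and astrocyte genes 3 of 13 and myeloid genes 1 of 14. Endothelial and mural genes had 0 of 12 and erythroid genes 0 of 5. With lists this short, counting error alone leaves wide intervals, such as 5.04 to 53.8% for the 23.1% of oligodendrocyte and astrocyte genes.

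**Figure D5:**
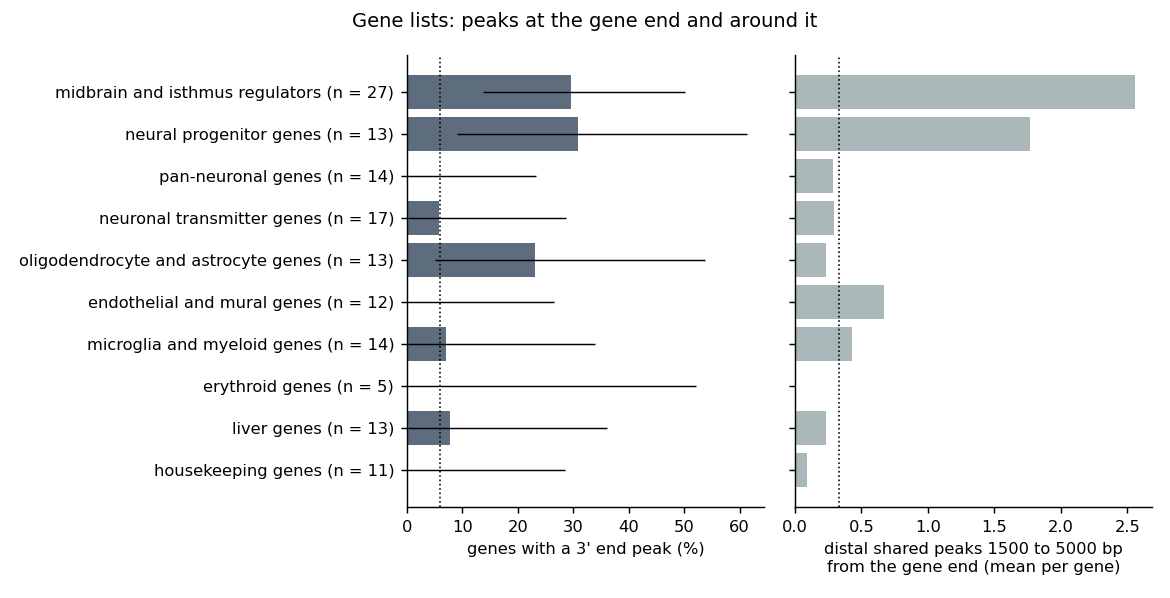
Gene lists with their number of eligible genes: left, share of genes with a peak at the 3' end (%), with 95% exact intervals; right, mean number of distal shared peaks per gene 1500 to 5000 bp from the end. Dotted lines mark all eligible genes, at 5.96% and 0.331; midbrain regulators and progenitor genes stand highest in the right panel, at 2.56 and 1.77.

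None of the peaks at list genes held a CTCF match, where 9.17% of all 3' end peaks did. The list peaks are few, so this absence does not set them apart. None reached the heights above. En1, the homeobox gene that maintains the midbrain and isthmus, had a peak 218 bp past its end with values of 19 and 75 and one 182 bp inside with 22 and 70. Foxa1, a forkhead factor of the floor plate and dopaminergic progenitors, had a peak 302 bp inside its end with 17 and 75. The other 6 regulators with a peak, named after their values were seen, were the homeobox genes Otx1, Otx2, Pou4f1, Msx1 and Msx2 and the paired box gene Pax2. Otx2, which specifies midbrain, had 9 and 54 at a peak 207 bp past its end, the lowest values on the list. Pou4f1, of midbrain and sensory neurons, had 17 and 61 at 106 bp past. The hotspot around a peak could differ widely between replicates: at Foxa1 it spanned 128 bp in replicate 1 and 3656 bp in replicate 2, and at Pou4f1 301 and 6928 bp.

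Among progenitor genes, the peak at Ccnd1, the gene of cyclin D1, had 22 and 76, that at Slc1a3, the glial glutamate transporter of radial glia, 15 and 65, and that at Sox1, a factor of neuroepithelium, 11 and 57. Zic1, a zinc finger factor of the dorsal neural tube, named after its values were seen, had 12 and 44. Slc32a1, the vesicular transporter of GABA and glycine, had a peak 142 bp past its end with 19 and 68 and one 198 bp inside with 11 and 68, both in a hotspot of 2301 bp in replicate 1 and 1711 bp in replicate 2.

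S100b, a glial calcium-binding protein gene, had the tallest peak on the lists, 309 bp inside its end with 23 and 95, against 12 and 43 at its promoter. Pdgfra, the receptor that marks oligodendrocyte precursors, had 11 and 68 and Mbp, the gene of myelin basic protein, 11 and 49. Spi1, the gene of the myeloid factor PU.1, had 9 and 43 at a peak 54 bp past its end, while its promoter had no shared peak. A gene on the same strand follows the Spi1 end within 10 kb.

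Of the 15 genes with 3 peaks at their end, the 5 whose peaks ranked highest were 3300002I08Rik, Ier5l, Olfr750, Flrt1 and Dmrt1, and the other 10, named after their counts were seen, were Fzd1, Pou3f3, Lrig2, Isl1, Lbx1, Sox11, Ptgdr, Insm1, H3f3b and Bmi1. The 3 peaks at 3300002I08Rik, with replicate 2 values of 120, 118 and 60, overlapped in a row, shared a replicate 1 value of 60 and lay 20 to 180 bp from a RefSeq transcript start, so in that annotation they are promoter peaks.

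At Ier5l, an immediate early response gene, the 3 peaks had 51 and 113, 18 and 50, and 11 and 50, within a single hotspot of 4182 bp in replicate 1 and 3833 bp in replicate 2, with an annotated start 2229 bp from the nearest peak. At Flrt1, which encodes a membrane protein of axon guidance, they had 32 and 88, 18 and 57, and 18 and 39. At Dmrt1, a gonadal sex determination gene, they had 21 and 80, 14 and 47, and 14 and 43, in a hotspot of 1869 bp in replicate 2. At Olfr750, an olfactory receptor gene with no shared promoter peak, they had 30 and 103, 33 and 88, and 11 and 85. None of the peaks at Ier5l, Olfr750 and Flrt1 had a RefSeq gene end within 500 bp.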

How the data were processed

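DNase-seq of 1 group of 2 biological replicates was analysed. Coordinates are mm10 per the labels. Which aligner and caller were used is not given in the sources used here, and read depth is unknown. The deposited peak lists give 150 bp intervals, each with a signal value of at most 150 as the authors called it in each replicate. The deposited hotspot lists give a −log10 q value of at most 100, starting at q = 0.05. The deposited display score of each hotspot, whose making is not stated, was not used. Ranks of peaks are percentiles within a replicate's autosomal peaks, over 19 chromosomes, and the replicate 1 value of a shared peak is the highest among the peaks it overlaps.

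Sequence was GRCm38.p6, gene ends came from GENCODE M21, and RefSeq on the same assembly served as a second annotation. The build was checked on 56865 start codons, of which 99.9% were ATG, and on chromosome lengths, which 0 peaks exceeded. An end was eligible when at least 1 base within 500 bp met the rule on starts and coding sequence. A promoter was open with a shared peak within 1000 bp of a start of the gene. Shares have 95% exact (Clopper-Pearson) intervals and densities exact Poisson ones. Peaks and genes are not replicates, so no p-values were computed.

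The genes named were the 10 peaks of highest mean rank over both replicates, up to 3 per gene list, 5 with a CTCF match, the 5 genes with most peaks and 5 peaks past the end outside exons. The members and lists were chosen with earlier results of these data known. The comparison with peaks 1500 to 5000 bp away, the RefSeq and CpG alternatives and the alternatives for lists and strands were chosen after seeing the data. The programs, tested on simulated data, ran in Python 3.11.15 with matplotlib 3.10.9, scipy 1.17.1, pandas 2.3.3 and numpy 2.4.6. A peak at a list gene is not reported here.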

Additional observations from a re-analysis of the deposited data

How the results depend on the processing

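The number of peaks at gene ends followed the limits: 497 within 250 bp, 2075 within 1000 bp, 1601 with the end of any protein-coding transcript and 585 when over 5000 bp from starts, against 1058. It was 1749 to 4111 when either replicate was left out, since sharing was then not required. The density over the surroundings was 1.03 within 250 bp and 1.04 over 5000 bp from starts. Within 250 bp, 58.4% were centred past the end. With replicate 2 values at or above the median, median GC was 52.7% and the CTCF share 12.8%. With either replicate left out, the CTCF share was 2.48 to 5.89% and median GC was 46 to 51.3%. The median rank in replicate 1 was 51.6 without replicate 2, and that in replicate 2 was 49.2 without replicate 1. Ranks listed for the replicate left out were 86.7 for replicate 1 and 66.6 for replicate 2. These equal the values of the shared peaks, so they do not show what leaving a replicate out does. Over 13 settings the CTCF share at ends was 1.95 to 2.67 times that of other distal peaks, and 0.867 to 1.02 times that of peaks 1500 to 5000 bp from an end.

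For shared peaks, 5 of 27 midbrain regulators had a peak within 250 bp (18.5%), against 2.9% of all eligible genes. With an overlap of 75 bp or more it was 5 of 27 (18.5%), against 5.36%. Over 5000 bp from starts it was 4 of 27 (14.8%), against 3.34%. With either replicate left out, the share of midbrain regulators with a 3' end peak was 44.4 to 51.9%, against 9.07 to 17.6% of all eligible genes. In replicate 1 alone, 7 of 14 pan-neuronal genes had one (50%). The 50% of pan-neuronal genes stood above the share of all eligible genes in replicate 1. With shared peaks it was 0 of 14, with an interval up to 23.2% that includes the 5.96% of all eligible genes. In all, 251 values stayed within their limits and 41 moved. No paired analysis was possible because the study has 1 group. Peak values are not scaled between replicates, no read depth was used, and 2 libraries allow no estimate of the spread between animals.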
